A study of Arabidopsis thaliana with 6 samples.

Results

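The genes described here are 9 loci of the Arabidopsis thaliana response to zinc shortage, chosen by their locus identifiers out of 26800 gene rows: the metal transporters ZIP1, ZIP3, ZIP4, ZIP5, ZIP9 and IRT3, the zinc-exporting ATPase HMA2, and the transcription factors BZIP19 and BZIP23. All 9 had a row and all 9 passed the filter on low counts. The series holds 6 RNA-seq libraries from whole seedlings aged 12 days, of which 3 are labelled vih1vih2 and 3 are labelled wild type (Col-0). The vih1vih2 line carries mutations in both VIH1 and VIH2, kinases that make the inositol pyrophosphate InsP8, which the series title presents as a phosphate signal inside the cell. All seedlings grew at 22 °C in light of 100 µmol per square metre each second, on MS medium diluted to 1/2 with 1% sucrose and 1% agar. Neither the zinc content of the medium nor that of the plants is given in the labels. The labels give neither the alleles nor the number of seedlings in a library. A whole-seedling library mixes root and shoot, so that fewer cells of a type and less RNA per cell cannot be told apart.

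In Arabidopsis, bZIP19 and bZIP23 are partly redundant regulators that sense zinc inside the cell and, when it is short, bind the zinc deficiency response element (ZDRE) before their targets. The targets include ZIP transporters, which carry zinc and related metals into the cytosol, and nicotianamine synthases, whose product chelates metals for transport between tissues. HMA2 and its relative HMA4 pump zinc out of cells of the root vasculature towards the xylem. Zinc and phosphate status are known to affect one another in plants: LPCAT1, a lysophospholipid acyltransferase, is known as a gene under both bZIP23 and the phosphate regulator PHR1.

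The ZDRE is a palindrome whose inner letters are TGTCGACA. Upstream sequence of ZIP4 and IRT3 is shown because these were the only loci of the 9 with this core between 250 bases before and 50 bases after the RefSeq gene start. The 250 bases before each start are printed 5′ to 3′ on the gene's strand, with the core in capitals (RefSeq TAIR10.1, minus strand, chr1:3667140-3667389 for ZIP4 and chr1:22447300-22447549 for IRT3).
ZIP4: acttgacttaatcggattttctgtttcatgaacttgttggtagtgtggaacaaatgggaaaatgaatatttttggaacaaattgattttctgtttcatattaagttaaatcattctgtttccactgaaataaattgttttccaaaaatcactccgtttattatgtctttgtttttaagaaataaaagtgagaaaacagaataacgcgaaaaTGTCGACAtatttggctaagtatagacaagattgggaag
IRT3: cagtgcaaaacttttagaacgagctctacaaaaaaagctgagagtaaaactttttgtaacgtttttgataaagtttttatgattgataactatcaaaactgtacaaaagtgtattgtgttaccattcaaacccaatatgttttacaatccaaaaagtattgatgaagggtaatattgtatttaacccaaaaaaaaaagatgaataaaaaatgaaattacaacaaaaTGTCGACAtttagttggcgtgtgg

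The core began 39 bases before the start of ZIP4 and 24 bases before that of IRT3. In windows of this length the core occurred in 0.328% of 27443 protein-coding genes, and in 2 of the 9. The 9 include known targets of the factors that bind this element, so these shares are a description and not a test. With 1000 bases before the start, a length chosen after the shorter window was seen, it occurred in 1.1% of genes, and ZIP5 joined ZIP4 and IRT3. The sites of ZIP5, of the zinc transporter ZIP12 and of LPCAT1 are shown with 8 bases on each side, since these genes return in the results (chr1:1548665-1548688, minus strand; chr5:24959933-24959956, plus strand; chr1:4306168-4306191, minus strand).
ZIP5: acaatttaTGTCGACAttctctcg
ZIP12: accgtgcaTGTCGACAttactccc
LPCAT1: tcctttcaTGTCGACAcgtgaacc

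With at most 1 letter of the core changed, 3 of the 9 (ZIP4, ZIP9 and IRT3) matched in the shorter window, where 7.71% of all genes did. In the longer window 5 matched (ZIP1, ZIP4, ZIP5, ZIP9 and IRT3), where 24.7% of all genes did, and ZIP3, HMA2, BZIP19 and BZIP23 did not. The P1BS motif of PHR1 (GNATATNC, both strands) was in none of the 9 shorter windows, against 6.25% of all genes, and in 4 of the longer ones (ZIP4, ZIP9, IRT3 and HMA2), against 20.9%. A match is a description of the letters and not of binding.

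**Figure D1:**
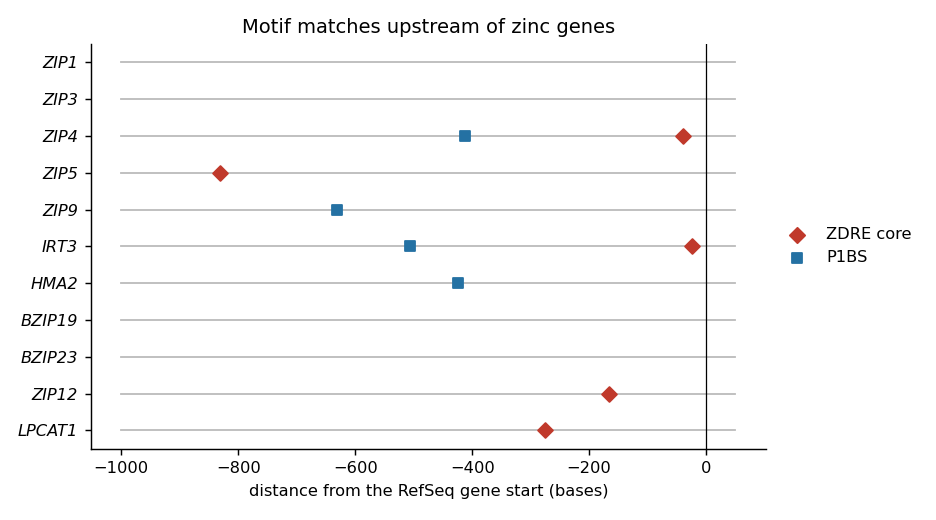
Position of each motif match (x axis, bases from the RefSeq gene start, upstream negative) in the window from 1000 bases before to 50 after the start of the 9 genes, ZIP12 and LPCAT1. Red diamonds are the ZDRE core and blue squares P1BS. The cores of ZIP4 and IRT3 lie 39 and 24 bases before the start, and that of ZIP5 831 bases before it.

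Total counts were 42697387 to 64410871 per library, so that 1 count was worth 0.0155 to 0.0234 CPM, the unit of counts relative to the library total. CPM values below are scaled by TMM. A log2 fold change sets vih1vih2 against wild type, as labelled, and a ± after it is the standard error. A gene is said to have risen or fallen only where edgeR (quasi-likelihood, Benjamini-Hochberg over all 22818 genes tested) gave an adjusted p under 0.05. As a check of the labels, VIH2 had 33783, 35310 and 38660 counts in the libraries labelled vih1vih2, against 2759, 2783 and 2310 in those labelled wild type, and VIH1 had 1737, 1524 and 1820 against 325, 361 and 246. Both targeted genes were therefore higher under the mutant label, and gene totals cannot tell intact transcripts from broken ones. Every direction below rests on the labels alone. Separate cultures are not stated for the libraries of a group, so the p-values reflect the spread between these samples, and that spread may be technical. As a check of the tissue, every leaf, root and vascular marker was counted in every library, the lowest being the root marker CASP5 at 0.487 CPM in vih1vih2 3.

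Most of the zinc shortage genes were higher under the vih1vih2 label. Of the 9, 6 rose, by 1.38-fold to 3.54-fold (ZIP1, ZIP4, ZIP5, IRT3, HMA2 and BZIP23), 1 fell (ZIP3), and BZIP19 and ZIP9 did not pass the test. Over all tested genes 40.9% were called, 21.4% higher and 19.4% lower. The median log2 fold change of the 9 was 0.98, against −0.002 over all genes tested. The values of the groups did not overlap for 8 of the 9, with vih1vih2 higher for 7 and lower for ZIP3. Over all genes tested the groups did not overlap for 56.4%, with vih1vih2 higher for 28.9% and lower for 27.5%.

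**Figure D2:**
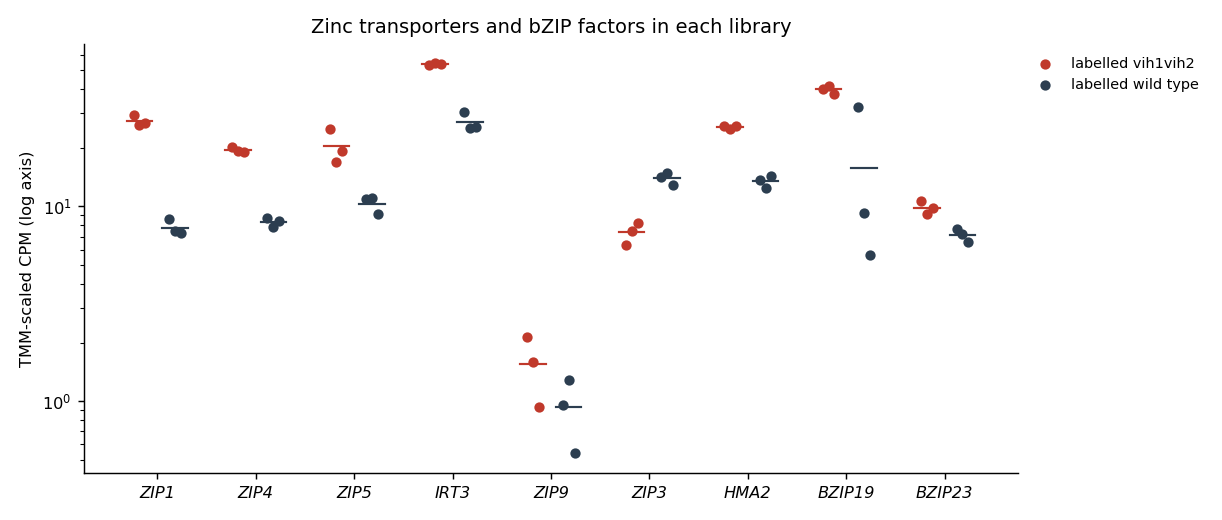
TMM-scaled CPM (y axis, log scale) of the 9 genes in each library, with the libraries labelled vih1vih2 in red on the left and those labelled wild type in dark blue on the right of each pair. Each point is a library and each bar the mean of 3. Red points lie above blue points for ZIP1, ZIP4, ZIP5, IRT3, HMA2, BZIP19 and BZIP23 and below them for ZIP3, while those of ZIP9 overlap.

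Among the transporters of the ZIP family, ZIP1 (AT3G12750, chromosome 3, 4051651 to 4053201, minus strand), a zinc transporter induced by zinc shortage, showed the largest called change of the 9. It stood at 29.5, 26.3 and 26.7 CPM in the libraries labelled vih1vih2, against 8.57, 7.45 and 7.33 CPM in those labelled wild type. The groups were far apart and each was tight, at 27.5 ± 1.76 CPM and 7.78 ± 0.684 CPM (SD, n = 3 each). The log2 fold change was 1.82 ± 0.10 (adjusted p = 0.00014). The 125 bases that ZIP1 shares with ALIS1 on the opposite strand could exchange reads if strand was not used in counting. ALIS1 did not pass the test, at 0.13 ± 0.16 (adjusted p = 0.58).

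ZIP4 (AT1G10970, chromosome 1, 3665087 to 3667139, minus strand), one of the best-known targets of bZIP19 and bZIP23, had 20.3, 19.2 and 19.0 CPM in the libraries labelled vih1vih2 and 8.70, 7.86 and 8.45 CPM in those labelled wild type. The libraries of each group lay close together, and ZIP4 rose by a log2 fold change of 1.23 ± 0.08 (adjusted p = 0.000258). IRT3 (AT1G60960, chromosome 1, 22445299 to 22447299, minus strand), a transporter of zinc and iron, had 53.4, 54.2 and 54.0 CPM in the libraries labelled vih1vih2 and 30.6, 25.3 and 25.6 CPM in those labelled wild type. It rose by 0.99 ± 0.09 (adjusted p = 0.00077), and its spread within the vih1vih2 label was 1.01-fold from lowest to highest. ZIP4 and IRT3 are the pair with the ZDRE core close to the start.

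ZIP5 (AT1G05300, chromosome 1, 1544927 to 1547849, minus strand), whose ZDRE core lies farther upstream, had 25.05, 16.96 and 19.15 CPM in the libraries labelled vih1vih2 and 10.87, 10.98 and 9.165 CPM in those labelled wild type. The first library stood above the others of its group, and all 3 were above every wild type value. ZIP5 rose by 0.98 ± 0.18 (adjusted p = 0.00815). ZIP9 (AT4G33020, chromosome 4, 15932420 to 15934762, minus strand), another target of these factors, was barely counted, with 119, 81 and 50 counts in the libraries labelled vih1vih2 and 58, 60 and 22 in those labelled wild type. In CPM these were 2.14, 1.60 and 0.937 against 0.959, 1.29 and 0.539, so the groups overlapped. Its log2 fold change of 0.74 ± 0.44 did not pass the test (adjusted p = 0.242).

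ZIP3 (AT2G32270, chromosome 2, 13704068 to 13706928, plus strand), also known as a transporter induced in zinc-deficient roots, went the other way. It had 6.37, 7.47 and 8.23 CPM in the libraries labelled vih1vih2, against 14.2, 14.8 and 12.9 CPM in those labelled wild type. The groups did not overlap, and ZIP3 fell, its log2 fold change being −0.92 ± 0.13 (adjusted p = 0.00316).

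HMA2 (AT4G30110, chromosome 4, 14720062 to 14725311, minus strand) exports zinc from cells for loading into the xylem. It had 25.8, 24.9 and 25.8 CPM in the libraries labelled vih1vih2 and 13.7, 12.5 and 14.3 CPM in those labelled wild type. HMA2 rose by 0.92 ± 0.08 (adjusted p = 0.000668). HMA3, its neighbour on the chromosome and a pump that loads zinc and cadmium into the vacuole, was near 1 CPM and did not pass the test, at −0.40 ± 0.16 (adjusted p = 0.107).

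The regulators differed in how far their libraries agreed. BZIP23 (AT2G16770, chromosome 2, 7279366 to 7281499, plus strand) had 10.7, 9.16 and 9.76 CPM in the libraries labelled vih1vih2 and 7.64, 7.19 and 6.57 CPM in those labelled wild type. It rose by 0.47 ± 0.11 (adjusted p = 0.0192), the smallest called change of the 9. The call was lost without vih1vih2 1 or 3, at 0.41 and 0.47, and without wild type 2 or 3, at 0.47 and 0.41. BZIP23 shares 126 bases with MSI2 on the opposite strand, and MSI2 fell by 0.66 ± 0.07 (adjusted p = 0.00145).

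BZIP19 (AT4G35040, chromosome 4, 16680209 to 16682881, plus strand) had 40.0, 41.6 and 37.9 CPM in the libraries labelled vih1vih2, against 32.5, 9.25 and 5.66 CPM in those labelled wild type. Wild type 1 lay near the vih1vih2 values and the other wild type libraries far below them. The log2 fold change of 1.33 ± 0.66 did not pass the test (adjusted p = 0.171). Without wild type 1 it was 2.42 ± 0.25 and passed (adjusted p = 0.00373), and with wild type 1 as the only wild type library, a fit in which that library is assumed to vary like the others, it was 0.28 ± 0.10 and did not pass (adjusted p = 0.143). Among 16599 tested genes of at least 5 CPM, 4.03% had wild type values at least as far apart as the 5.74-fold of BZIP19, and the median was 1.18-fold. MSI3, which overlaps BZIP19 by 302 bases on the opposite strand, had 22.3, 23.8 and 21.95 CPM in the libraries labelled vih1vih2 and 35.5, 28.5 and 31.6 CPM in those labelled wild type. It fell by 0.49 ± 0.10 (adjusted p = 0.0132), and its wild type libraries lay closer together than those of BZIP19.

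Per length, BZIP19 was 2.49, 3.01 and 2.57 times the level of BZIP23 in the libraries labelled vih1vih2. In those labelled wild type the ratios were 2.82, 0.853 and 0.571. Wild type 1 thus shared the order of the vih1vih2 libraries, and wild type 2 and 3 had the reverse order.

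**Figure D3:**
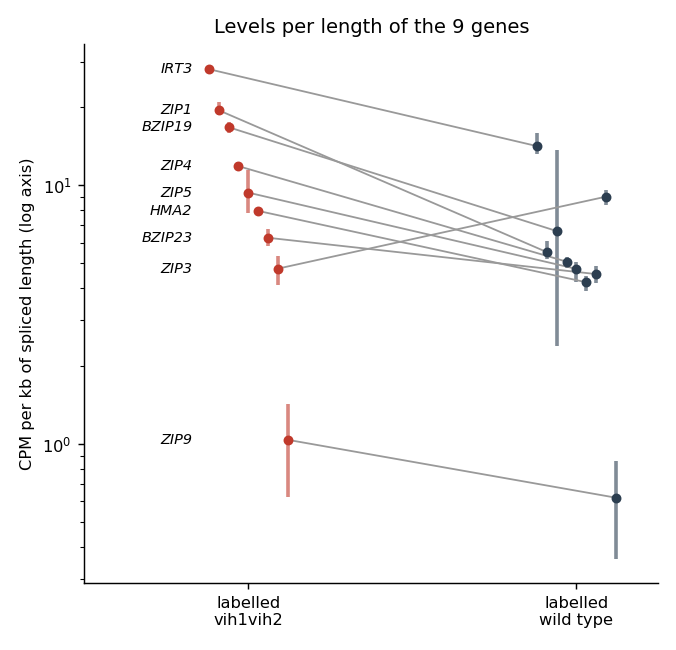
Mean CPM per kb of spliced length (y axis, log scale) of the 9 genes in the libraries labelled vih1vih2 (left) and wild type (right), with vertical bars from the lowest to the highest of 3 libraries and a line joining the means of each gene. IRT3 is at the top in both groups, ZIP9 at the bottom, and ZIP3 is next to the top in wild type and next to the bottom in vih1vih2.

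Ordered by CPM per kb of spliced length in the libraries labelled vih1vih2, IRT3 came first (28.1 ± 0.223), followed by ZIP1 (19.5 ± 1.24), BZIP19 (16.8 ± 0.793), ZIP4 (11.9 ± 0.406), ZIP5 (9.36 ± 1.92), HMA2 (7.96 ± 0.156), BZIP23 (6.26 ± 0.475), ZIP3 (4.76 ± 0.605) and ZIP9 (1.04 ± 0.401; SD, n = 3 each). Of the neighbours in that order, only ZIP5 and HMA2 overlapped. In the libraries labelled wild type the order began with IRT3 (14.2 ± 1.56) and ZIP3 (9.03 ± 0.602) and ended with ZIP9 (0.619 ± 0.251). The genes between ZIP3 and HMA2 ran from 6.65 ± 6.12 for BZIP19 to 4.21 ± 0.29 for HMA2, and each overlapped its neighbour.

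Other known zinc deficiency genes were higher as well. Of 8 such genes, 7 had a row, 5 were tested and all 5 rose, against 21.4% of all genes tested. Their median log2 fold change was 1.496. The 8th, ZIP10, is not analysed here, and AT1G34047 and AT2G36255, genes of the defensin-like family, had too few counts to be tested. NAS2 and NAS4, nicotianamine synthases, stood at 15.6 ± 2.01 and 33.2 ± 1.75 CPM in the libraries labelled vih1vih2, against 5.51 ± 0.421 and 16.4 ± 0.869 CPM in those labelled wild type (SD, n = 3 each). Their log2 fold changes were 1.496 ± 0.134 (adjusted p = 0.000653) and 1.017 ± 0.079 (adjusted p = 0.0004).

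ZIP12 had 146 counts over the libraries labelled vih1vih2 and 4 over those labelled wild type, all 4 of them in wild type 1. The ratio of scaled counts was 33.8, with an exact 95% interval of 12.9 to 126 that covers counting error only (adjusted p = 0.00671). Without wild type 1, the remaining wild type libraries held no count. A floor of 3 counts in the group as a whole then put ZIP12 at least 26.6-fold higher. Leaving out the only wild type library with counts raises this bound above the 12.9 of all libraries. The bound covers counting error in wild type only. The defensin-like genes AT3G59930 and AT5G33355 rose by 1.01 ± 0.08 and 2.31 ± 0.24. Of the 536 stretches of 50 bases in AT5G33355, 172 also occur in AT3G59930, so the counting could split their reads.

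The rest of the ZIP family moved both ways. Of 10 genes 9 were tested, 2 rose, 3 fell and 4 did not pass, and the median log2 fold change was −0.006. Among all genes tested 21.4% rose and 19.4% fell. ZIP2, which acts in the root stele, had 28.1, 27.9 and 28.7 CPM in the libraries labelled vih1vih2 and 70.0, 66.0 and 60.5 CPM in those labelled wild type, and fell by 1.21 ± 0.07 (adjusted p = 0.000169). IRT1, the main iron uptake transporter of the root, fell by 1.14 ± 0.13 and its neighbour IRT2 by 1.22 ± 0.33. The IRT2 call was lost without vih1vih2 2 or 3 (−1.14 and −1.08) and without wild type 1 or 2 (−1.09 and −1.08).

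ZIP7 and ZIP11 rose by 1.31 ± 0.28 and 0.90 ± 0.18. The ZIP7 call was lost without vih1vih2 1 or 3, at 1.235 and 1.252, and without wild type 2, at 1.29. Of those that did not pass, the best expressed were ZIP13 at 1.27 ± 0.47, IAR1 at 0.15 ± 0.31 and ZIP6 at −0.01 ± 0.20. ZIP13 had 42.98, 37.66 and 111.9 CPM in the libraries labelled vih1vih2 and 32.99, 24.81 and 22.23 CPM in those labelled wild type. Without vih1vih2 3, which stood far above the rest, its log2 fold change was 0.595 and still not called, while the DESeq2 Wald test called it with all libraries (adjusted p = 0.0251). ZTP29, at −0.86 ± 0.54, passed without vih1vih2 3, at −1.71 (adjusted p = 0.0022).

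**Figure D4:**
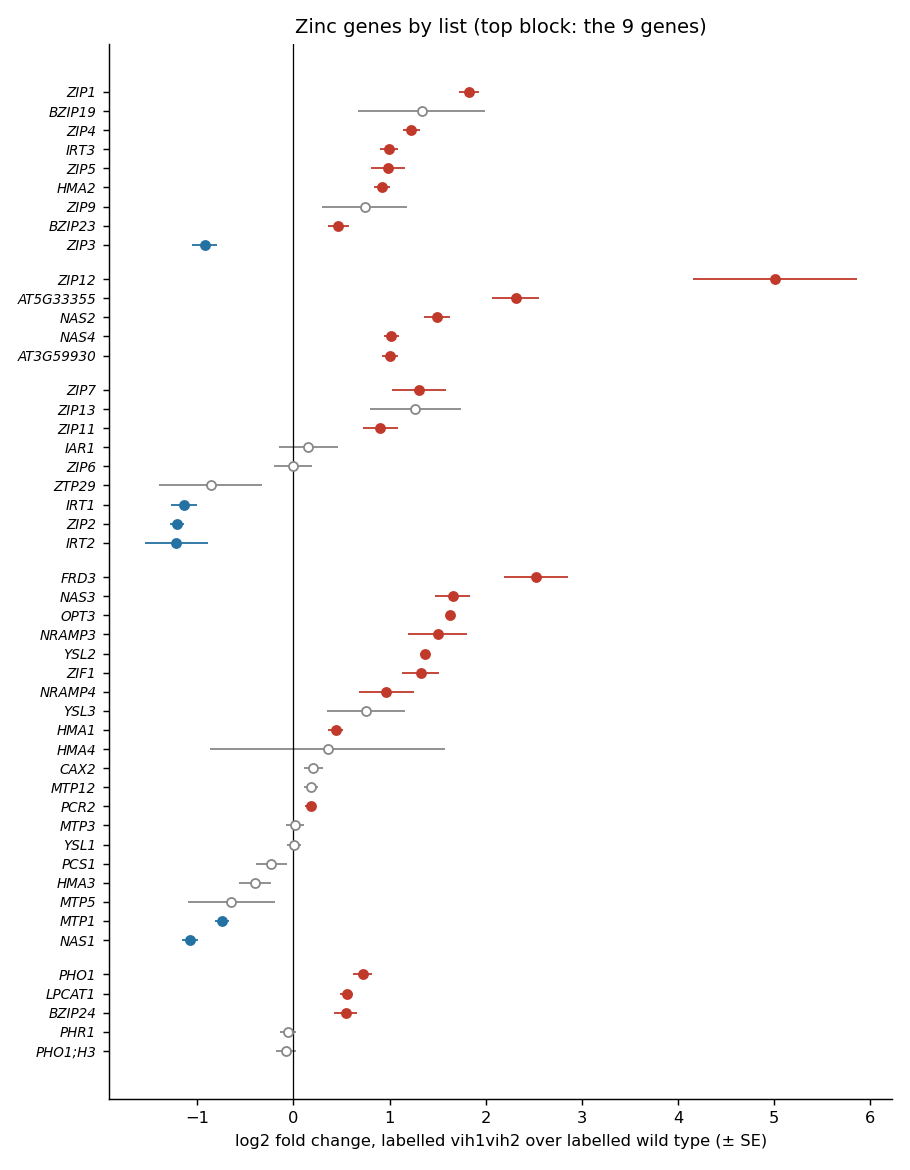
Log2 fold change (x axis, vih1vih2 over wild type as labelled, bars ± SE) of the 48 tested zinc genes, in blocks from the top: the 9 genes, other zinc deficiency genes, the rest of the ZIP family, efflux, storage and chelation, and genes linking zinc with phosphate. Filled red points rose, filled blue points fell and open points did not pass the test. All 5 points of the second block are red, and the fitted value of ZIP12 among them rests on 4 wild type counts.

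Among 20 tested genes of zinc efflux, vacuolar storage and chelation, 9 rose, 2 fell and 9 did not pass, with a median log2 fold change of 0.28. Over all genes tested, 21.4% rose and 19.4% fell. OPT3, a transporter of the phloem needed for metal signalling from shoot to root, was the most counted, with 654 ± 0.162 CPM in the libraries labelled vih1vih2 and 212 ± 5.70 CPM in those labelled wild type. FRD3, which releases citrate into the xylem, rose by 2.52 ± 0.33, and NAS3, another nicotianamine synthase, by 1.66 ± 0.18. NRAMP3, which releases metals from the vacuole, rose by 1.502 ± 0.307, and YSL2, of a family that carries metal–nicotianamine complexes, by 1.37 ± 0.05. ZIF1, which moves nicotianamine into the vacuole, rose by 1.32 ± 0.19.

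MTP1, which stores zinc in the vacuole, fell by 0.74 ± 0.07, with 71.31, 66.93 and 64.98 CPM in the libraries labelled vih1vih2 against 107, 112 and 121 CPM in those labelled wild type. NAS1 fell by 1.07 ± 0.08, the opposite direction to NAS2, NAS3 and NAS4. The calls of NRAMP4 and PCR2 were the least firm of this list. NRAMP4, at 0.97 ± 0.28, lost its call without any 1 library except vih1vih2 1, with log2 fold changes of 0.80 to 1.00. Limma-voom (adjusted p = 0.0797) and a block for the replicate number in edgeR (adjusted p = 0.0881) also lost the NRAMP4 call. PCR2, at 0.18 ± 0.06, lost its call without any 1 library, at 0.16 to 0.20. In edgeR the PCR2 call was also lost with no filter, with upper-quartile scaling and with the block (adjusted p = 0.0637, 0.132 and 0.14).

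HMA4, the partner of HMA2 in loading zinc into the xylem, had 26.2, 176 and 18.3 CPM in the libraries labelled vih1vih2 and 135, 17.1 and 20.6 CPM in those labelled wild type. In each group 1 library stood far above the others, and the log2 fold change of 0.35 ± 1.22 did not pass the test (adjusted p = 0.848). It ranged from −1.37 without vih1vih2 2 to 1.97 without wild type 1. YSL3, at 106, 104 and 108 CPM against 82.7, 28.4 and 77.6 CPM, did not pass either (0.75 ± 0.40), but passed at 0.40 without wild type 2 (adjusted p = 0.012). MTP12, of the same family of metal carriers as MTP1, was at 0.18 ± 0.07 and did not pass. The DESeq2 Wald test called it at 0.19 (adjusted p = 0.0466). So did edgeR scaled by library totals alone, at 0.34 (adjusted p = 0.0164), and the other alternatives did not.

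**Figure D5:**
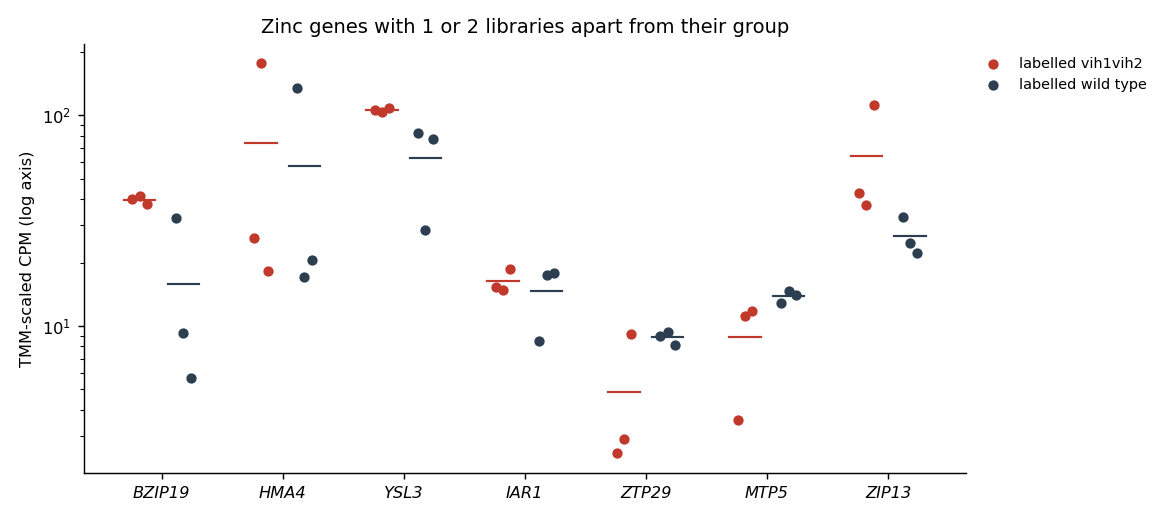
TMM-scaled CPM (y axis, log scale) of 7 zinc genes in which 1 or 2 libraries stood apart from the rest of their group, chosen after their values were seen. Libraries labelled vih1vih2 are in red on the left and those labelled wild type in dark blue on the right, with bars at the mean of 3. For BZIP19 the gap is within wild type, for HMA4 within both groups.

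Of the 5 genes linking zinc with phosphate, 3 rose, against 21.4% of all genes tested. PHO1, which exports phosphate to the xylem, rose by 0.72 ± 0.10 (adjusted p = 0.00303). LPCAT1 had 47.4, 44.3 and 48.9 CPM in the libraries labelled vih1vih2 and 31.7, 33.1 and 31.1 CPM in those labelled wild type, and rose by 0.55 ± 0.07 (adjusted p = 0.00187). BZIP24, the third of the subfamily of bZIP19 and bZIP23, rose by 0.54 ± 0.12. This call was lost without vih1vih2 1 or 3 or wild type 1, at 0.49, 0.55 and 0.53. It was also lost with a block for the replicate number in edgeR (adjusted p = 0.055). PHR1, at −0.06 ± 0.08, and PHO1;H3, a PHO1 relative known from zinc-deficient roots, at −0.08 ± 0.10, did not pass.

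Many organ markers moved beside these genes, while 19.4% of all genes tested fell and 21.4% rose. All 5 leaf mesophyll markers fell, with a summed level of 12250 to 12360 CPM in the libraries labelled vih1vih2 and 23970 to 24530 CPM in those labelled wild type. Of 15 root markers 7 fell, 1 rose and 7 did not pass, with sums of 172.7 to 180.6 CPM against 199.3 to 224.8 CPM. Of 7 vascular markers 4 fell and 3 did not pass, with sums of 224.1 to 252.2 CPM against 362.1 to 385.5 CPM. The part of organ make-up in the zinc gene values was not tested.

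The tested genes of at least 5 CPM whose log2 CPM, centred on their own mean, lay closest to that of ZIP1 over the 6 libraries were AT5G52450 (Euclidean distance 0.0988), DALL3 (AT2G30550, 0.138), a lipase, and the snoRNA gene AT4G39364 (0.173), out of 16591 compared. AT5G52450 had 40.8, 35.6 and 34.3 CPM in the libraries labelled vih1vih2 and 11.2, 10.3 and 9.95 CPM in those labelled wild type. With 2 groups, this likeness rests mostly on the difference between them.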

How the data were processed

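RNA was extracted from whole seedlings and libraries were made with a strand-keeping (directional) kit, per the labels' protocols. The authors deposited 1 table of raw counts, genes in rows and the 6 libraries in columns. STAR 2.5.3a, StringTie 1.3.3b, CASAVA 1.4 and the build TAIR10 are named in the submitters' processing notes. For the counting tool, its strand setting and its annotation: not given in the sources used here.

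Of 27080 rows, 280 with 6-digit locus identifiers were left out. None of the 9 genes had counts identical to another row, while 3 of the other listed genes did. The main test used edgeR 4.0.16 in R 4.3.3 (filterByExpr, TMM, glmQLFit and glmQLFTest, group as the only term, all 6 libraries), with Benjamini-Hochberg adjustment over 22818 genes. Standard errors were taken as |log2 fold change| divided by √F. The fit was checked on simulated data. Gene positions, spliced lengths (merged exons) and sequences came from RefSeq TAIR10.1, in which 81 of 82 listed identifiers were found. The files give no coordinates.

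The 9 genes and the lists were chosen with earlier results of these data known. The text names all 9 and, from each pathway list, up to 6 called genes of largest change with at least 1 CPM and up to 3 best-expressed genes not called. HMA3, MTP1, NAS1, NRAMP4, PCR2, ZTP29, ZIP12 (under 1 CPM) and MTP5 (plotted only) fall outside this rule. So do the overlapping genes ALIS1, MSI2 and MSI3 and the marker CASP5. All of these were named after their values were seen. Alternatives were other scalings, DESeq2 1.42.0, limma-voom (limma 3.58.1), other filters, leaving out 1 library at a time, a block for the replicate number, robust moderation, organelle genes removed and a threshold of 0.01. A fit with wild type 1 as the only wild type library, the longer promoter window and the motif with 1 letter changed were added after the data were seen. Plots used Python 3.11.15 and matplotlib 3.10.9.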

Additional observations from a re-analysis of the deposited data

How the results depend on the processing

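ZIP1, ZIP3, ZIP4, IRT3 and HMA2 kept their direction and their call under every alternative run, and ZIP9 was not called in any in which it was tested. Leaving out each library in turn, 5 to 7 of the 9 rose and 1 fell. Of the 23099 to 23221 genes tested in these fits, 4130 to 4377 rose and 3684 to 3775 fell. BZIP19 ranged from 0.924 to 2.415 in the same fits and BZIP23 from 0.405 to 0.518. In the labels, same-numbered libraries share only a number. Deviations of same-numbered libraries correlated at 0.033, −0.033 and −0.01 over 16599 genes, and those of other pairs at −0.037 to 0.047. These values cannot tell whether same-numbered libraries were grown or prepared together. With the replicate block 5 of the 9 rose, and BZIP23 was at 0.467 with an adjusted p of 0.054. Of all 22818 genes tested, 3463 rose and 3020 fell in that fit, against 4891 and 4433 without the block. With wild type 1 as the only wild type library, chosen after seeing the data, ZIP5 was at 0.896 and BZIP23 at 0.356, neither called. In that fit 2356 of all genes fell. Its calls assume that wild type 1 varies like the other libraries, so this count is not compared with the 9. A threshold of 0.01 left 3136 genes higher and 2623 lower. Among the 39 other zinc genes tested, 15 to 17 rose and 4 to 5 fell without 1 library, against 19 and 5 with all. Scaling by library totals alone moved the median of all genes by 0.157 on the log2 scale; no called zinc gene changed direction under any scaling. Depth limits ZIP9, ZIP12 and HMA3, which averaged under 2 CPM in both groups.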
